A study of Homo sapiens with 6 samples.

Results

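The integrated stress response was followed in MDA-MB-453 cells after *DUSP6* knockdown through 10 of its genes, *ATF4*, *ATF5*, *ATF3*, *DDIT3*, *TRIB3*, *PPP1R15A*, *CHAC1*, *ASNS*, *SESN2* and *DDIT4*. They were found by name, as the rows of the expression table whose symbol equals 1 of these, and the list was drawn up with earlier results of these data known. All 10 were among the 22807 genes of the table, and all 10 reached the mean value of 1 required for a test, as did 12862 genes in all. MDA-MB-453 is an established HER2+ breast cancer cell line, and DUSP6 is a phosphatase that removes phosphate from the kinases ERK1/2. mRNA was sequenced from 3 libraries labelled WT that had received scrambled siRNA and 3 libraries labelled *DUSP6* KD that had received *DUSP6* siRNA, all from the same line in the same medium. The study describes 3 different siRNAs in each group, given by lipid transfection. Which library received which siRNA and how long after transfection RNA was taken are not given in the sources used here, so the siRNA and the library cannot be told apart. The use of different siRNAs implies separate transfections, but the labels do not say whether the libraries came from independent experiments. The p-values measure the spread between these libraries, which includes any difference between siRNAs and may in part be technical.

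The integrated stress response is the program through which cells meet a shortage of amino acids, unfolded proteins in the endoplasmic reticulum, double-stranded RNA or a lack of heme. Each of these activates a kinase that phosphorylates the translation factor eIF2, which lowers protein synthesis in general while mRNAs such as that of *ATF4* are translated more. ATF4 then acts on genes for amino acid supply, redox balance, feedback and, when the stress lasts, cell death. Much of the control of *ATF4* lies in translation, which RNA levels do not show.

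The knockdown was visible in each library. The *DUSP6* value, a read count scaled to library depth, was 209, 110 and 114 in scrambled siRNA replicates 1, 2 and 3 and 39.4, 24.5 and 35.2 in *DUSP6* siRNA replicates 1, 2 and 3. The log2 fold change was -2.05 (standard error 0.25, limma adjusted p = 3.09e-04), and replicate 2 had the lowest level. The libraries held between 45546981 and 85729785 reads assigned to genes, and the member with the fewest reads in any library, *CHAC1*, still had 701. Of 9 markers of luminal breast cells, such as keratins and *ERBB2*, 9 were in the table, and their summed value was between 4018 and 5349 with scrambled siRNA and between 2960 and 3161 with *DUSP6* siRNA, with 1 higher and 6 lower. Markers of immune, stromal, endothelial and basal cells, of which 9 of 10 were in the table, summed to between 5.71 and 6.74 with scrambled siRNA and between 4.48 and 6.81 with *DUSP6* siRNA once *COL1A1* was set aside. With *COL1A1*, which was higher with *DUSP6* siRNA, the sums were between 87.3 and 112 and between 169 and 198. *PTPRC*, which marks leukocytes, was at 0.081 or less in each library, and *COL3A1*, which marks fibroblasts, at 0.038 or less. *CD68*, also listed for leukocytes, was between 3.41 and 5.47 and made up most of the sum without *COL1A1*. The basal marker *KRT14* was at 0.057 or less with scrambled siRNA and between 0.281 and 0.404 with *DUSP6* siRNA. *KRT5*, the other basal marker, went from between 0.580 and 0.920 to between 0.404 and 0.572. Both keratins were below the filter on low values. The part of these shifts in the results was not tested. In bulk RNA a change in the mix of cells and a change in RNA per cell cannot be told apart.

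Of the 10 genes, 5 passed the test at an adjusted p under 0.05 with a higher level in the knockdown, namely *ATF3*, *SESN2*, *ASNS*, *DDIT3* and *CHAC1*. The background share of genes higher in the same test was 19.7%. *ATF5* was lower, against a background of 24.7% of genes lower. *ATF4*, *TRIB3*, *PPP1R15A* and *DDIT4* did not pass the test. The median log2 fold change of the 10 genes was 0.53, and that of all genes tested was -0.01. In 5 of the 10 genes all 3 *DUSP6* siRNA libraries lay above every scrambled siRNA library, as did 26.7% of all genes, and in 1 they all lay below, as did 31.1% of all genes.

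**Figure D1:**
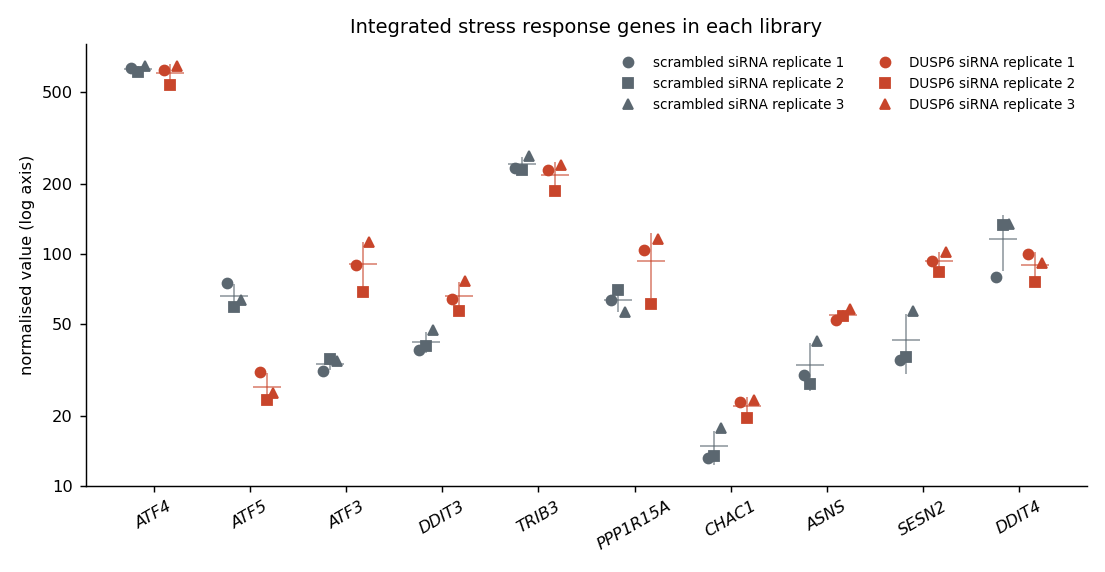
Normalised value of each gene in each library on a log axis, with scrambled siRNA and *DUSP6* siRNA libraries in different colours and replicates 1, 2 and 3 as different symbols; horizontal lines are group means and vertical lines reach 1 SD to either side (n = 3). For *ATF3* the scrambled siRNA libraries sit between 31.3 and 35.3 and the *DUSP6* siRNA libraries between 68.4 and 113, while for *ATF4* the groups overlap.

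With scrambled siRNA, *ATF4* had by far the highest level for its length. Per kilobase of exon sequence, the mean scrambled siRNA value of *ATF4* was 241 ± 6.73 (SD, n = 3). *TRIB3* followed at 73.9 ± 5.83 (SD, n = 3) and *DDIT4* at 54.7 ± 14.7 (SD, n = 3) per kilobase. *DDIT3* (32.0 per kilobase), *ATF5* (22.7 per kilobase) and *PPP1R15A* (18.4 per kilobase) came next, and down to there no gene's scrambled siRNA libraries overlapped those of its neighbour in the order. *SESN2* (12.3 per kilobase) overlapped *PPP1R15A*. The lowest levels were those of *ATF3* (8.42 per kilobase), *CHAC1* (7.21 per kilobase) and *ASNS* (6.81 per kilobase), and the libraries of *ATF3* and *CHAC1* overlapped, as did those of *CHAC1* and *ASNS*. These 3 genes with the lowest control levels were among the 5 that rose. The lengths join all GENCODE exons of a gene, while the reads were counted on RefSeq genes, so the order is approximate. Not divided by length, the scrambled siRNA means were 14.8 for *CHAC1*, 33.3 for *ASNS* and 33.6 for *ATF3*. *DDIT3* (41.8) and *SESN2* (42.6) lay close above.

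The promoters of these genes were searched for the motifs of the pathway, and every match found in the 10 genes is shown. Matches lay in *ATF3*, *ASNS* and *CHAC1*, which rose, and in *PPP1R15A*, which did not pass the test. *SESN2* and *DDIT3*, which also rose, held no match. The C/EBP-ATF response element, to which ATF4 binds with a C/EBP partner, was searched as TGATGNAA on both strands from 250 bases before to 50 bases after each RefSeq start site. It was found in 3 of the 10 genes and in 4.46% of all 27305 genes with such a window (3.62% of 35116 windows). The 10 genes have 18 windows, more per gene than genes in general, so counts per gene are not fully like for like. The cAMP response element TGACGTCA, which ATF3 and its relatives bind, was found in 1 of the 10 genes and in 2.25% of all genes. The endoplasmic reticulum stress element, CCAAT and CCACG set 9 bases apart, was found in 0 of the 10 genes and in 0.0916% of all genes. No match of one motif lay over a match of another in these genes. Capitals mark the match. The *ATF3* sequence, at chr1:212565157-212565333 on the plus strand, is the part of the window before any GENCODE exon. For the others, 30 bases around the match are given, since the match lies in the first exon of a longer GENCODE transcript. These are chr7:97872458-97872487 on the minus strand for *ASNS*, chr15:40953251-40953280 on the plus strand for *CHAC1*, and chr19:48872352-48872381 on the plus strand for *PPP1R15A* (RefSeq, GRCh38.p14). The *CHAC1* match is to the opposite strand of the motif. The matches begin 191, 68, 209 and 58 bases before a RefSeq start site of *ATF3*, *ASNS*, *CHAC1* and *PPP1R15A*. *ATF3* and *ASNS* each have 2 windows, of which 1 holds the match. A match is a description of letters only.
ATF3: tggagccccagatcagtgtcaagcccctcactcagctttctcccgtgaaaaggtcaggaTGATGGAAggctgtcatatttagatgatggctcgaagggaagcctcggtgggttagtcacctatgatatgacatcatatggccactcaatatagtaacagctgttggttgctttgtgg
ASNS: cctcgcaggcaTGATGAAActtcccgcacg
CHAC1: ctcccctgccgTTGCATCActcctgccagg
PPP1R15A: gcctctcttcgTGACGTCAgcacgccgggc

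Among the transcription factors, *ATF3* rose, *DDIT3* rose, *ATF5* fell and *ATF4* did not pass the test. *ATF4* (Entrez gene 468, chr22:39519695-39522683, plus strand, GENCODE on hg38) encodes the activator at the centre of the response. Its value was 632, 610 and 645 with scrambled siRNA and 620, 533 and 645 with *DUSP6* siRNA. The groups overlapped, with only *DUSP6* siRNA replicate 2 below the scrambled siRNA libraries. The log2 fold change was -0.07 (standard error 0.10, limma adjusted p = 0.575), and its 95% interval ran from a 0.812-fold to a 1.11-fold level. Its sign turned under quantile normalization and without *DUSP6* siRNA replicate 2. GENCODE names 4 pseudogenes of *ATF4*, and reads shared with them could not be set apart.

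*ATF3* (Entrez gene 467, chr1:212565334-212620777, plus strand), a stress-induced factor that acts mostly as a repressor, had the largest increase of the 10 genes. Its value was 31.3, 35.3 and 34.4 with scrambled siRNA and 90.0, 68.4 and 113 with *DUSP6* siRNA. All 3 *DUSP6* siRNA libraries lay above the scrambled siRNA libraries, and replicate 2 was the lowest of them. The mean went from 33.6 ± 2.11 to 90.4 ± 22.2 (SD, n = 3 each), which gave a log2 fold change of 1.37 with a standard error of 0.16 (limma adjusted p = 2.60e-04).

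*DDIT3* (Entrez gene 1649, chr12:57516588-57521737, minus strand) encodes CHOP, a partner of C/EBP factors that is linked to cell death in lasting stress. Its value was 38.6, 40.1 and 46.8 with scrambled siRNA and 63.6, 56.6 and 76.4 with *DUSP6* siRNA, with no overlap. *DDIT3* thus rose, with a log2 fold change that came to 0.63 (standard error 0.13, limma adjusted p = 0.00423). Exons of *MARS1* and *MBD6* cover 31.6% of its exon sequence, so its value is uncertain. These neighbours, chosen after their values were seen, went from 181 ± 47.5 to 235 ± 7.15 and from 111 ± 27.7 to 139 ± 10.8 (SD, n = 3 each), and neither passed the test.

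*ATF5* (Entrez gene 22809, chr19:49928702-49933935, plus strand), a factor whose translation is controlled much like that of *ATF4*, moved the other way. Its value was 74.8, 59.0 and 63.3 with scrambled siRNA and 31.0, 23.6 and 25.0 with *DUSP6* siRNA. Every *DUSP6* siRNA library lay below every scrambled siRNA library. The mean went from 65.7 ± 8.16 to 26.5 ± 3.96 (SD, n = 3 each), which gave a log2 fold change of -1.28 with a standard error of 0.13 (limma adjusted p = 1.27e-04). Exons of *NUP62* and *IL4I1* cover 19.5% of its exon sequence, so its value is uncertain. *NUP62*, chosen after its values were seen, went from 123 ± 8.13 to 97.5 ± 7.87 (SD, n = 3 each), a call lower that 4 of 14 alternatives lost, and *IL4I1* was below the filter on low values.

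The feedback genes did not pass the test. *TRIB3* (Entrez gene 57761, chr20:362835-397559, plus strand) encodes a pseudokinase that ATF4 and CHOP induce and that restrains them. Its value was 235, 230 and 265 with scrambled siRNA and 231, 186 and 242 with *DUSP6* siRNA. The groups overlapped, and only *DUSP6* siRNA replicate 2 fell outside the scrambled siRNA range, below it. For *TRIB3* the log2 fold change was -0.15 (standard error 0.12, limma adjusted p = 0.317), with a 95% interval from a 0.749-fold to a 1.08-fold level, and its sign turned under quantile normalization.

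*PPP1R15A* (Entrez gene 23645, chr19:48872212-48876059, plus strand) encodes GADD34, which brings protein phosphatase 1 to eIF2 and so ends the response. Its value was 63.4, 69.7 and 56.2 with scrambled siRNA and 104, 60.5 and 116 with *DUSP6* siRNA. Replicates 1 and 3 lay above the scrambled siRNA libraries and replicate 2 lay among them. Over all 3 libraries the log2 fold change was 0.51 (standard error 0.21, limma adjusted p = 0.0802). Without *DUSP6* siRNA replicate 2 it was 0.79 and the gene was called higher (limma adjusted p = 0.00417). DESeq2 on the recovered reads also called it higher (0.59, adjusted p = 0.0160). The other 5 fits that left out 1 library did not call it. The lowest of their log2 fold changes was 0.33, without *DUSP6* siRNA replicate 3 (limma adjusted p = 0.262).

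The genes of glutathione and asparagine metabolism, *CHAC1* and *ASNS*, both rose. *CHAC1* (Entrez gene 79094, chr15:40952962-40956512, plus strand) encodes an enzyme that breaks down glutathione. Its value was 13.2, 13.4 and 17.7 with scrambled siRNA and 23.0, 19.6 and 23.5 with *DUSP6* siRNA. The groups did not overlap, and the lowest *DUSP6* siRNA library, replicate 2, was close to the highest scrambled siRNA library. The log2 fold change was 0.55 (standard error 0.14, limma adjusted p = 0.0103), and the adjusted p reached 0.0498 when 1 library was left out.

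*ASNS* (Entrez gene 440, chr7:97851677-97872542, minus strand) encodes asparagine synthetase, a classic target of ATF4 in amino acid shortage. Its value was 30.2, 27.6 and 42.2 with scrambled siRNA and 51.8, 53.9 and 57.8 with *DUSP6* siRNA. The groups did not overlap, and the *DUSP6* siRNA libraries differed little among themselves. The mean went from 33.3 ± 7.78 to 54.5 ± 3.05 (SD, n = 3 each), which gave a log2 fold change of 0.71 with a standard error of 0.15 (limma adjusted p = 0.00481). GENCODE names 4 pseudogenes of *ASNS*.

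Of the inhibitors of the growth kinase complex mTORC1, *SESN2* rose and *DDIT4* did not pass the test. *SESN2* (Entrez gene 83667, chr1:28259518-28282491, plus strand) encodes a leucine sensor that holds mTORC1 back. Its value was 35.0, 36.0 and 56.9 with scrambled siRNA and 92.9, 83.8 and 102 with *DUSP6* siRNA. The groups did not overlap, although scrambled siRNA replicate 3 stood above its group. *SESN2* rose, and its log2 fold change was 1.14 (standard error 0.18, limma adjusted p = 0.00107).

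*DDIT4* (Entrez gene 54541, chr10:72273919-72276036, plus strand) encodes REDD1, which restrains mTORC1 through the TSC complex. Its value was 79.8, 133 and 135 with scrambled siRNA and 100, 75.9 and 91.2 with *DUSP6* siRNA. The groups overlapped because scrambled siRNA replicate 1 lay among the *DUSP6* siRNA libraries. With all libraries the log2 fold change was -0.34 (standard error 0.20, limma adjusted p = 0.183). Without scrambled siRNA replicate 1 it was -0.59 and the gene was called lower (limma adjusted p = 0.00902).

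**Figure D2:**
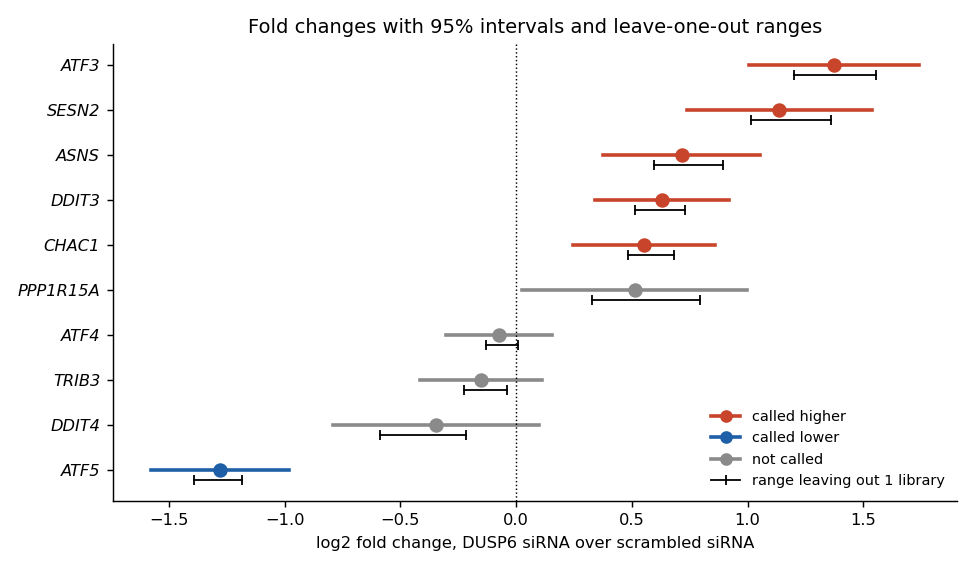
Log2 fold change of each of the 10 genes, *DUSP6* siRNA over scrambled siRNA, with its 95% interval from limma, not adjusted for the number of genes, coloured by call, and in black the range of the value when each library is left out in turn. *ATF3* (1.37), *SESN2* (1.14), *ASNS* (0.71), *DDIT3* (0.63) and *CHAC1* (0.55) were called higher and *ATF5* (-1.28) lower, and the interval of *PPP1R15A* (0.51) also lies above 0 although its adjusted p did not pass.

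Among the *DUSP6* siRNA libraries, replicate 2 stood apart. It was the lowest of the 3 *DUSP6* siRNA libraries in 9 of the 10 genes, all but *ASNS*. Replicate 2 was the lowest in 33.5% of all genes tested and in 17.8% of the genes called higher. The count of 9 also held under median of ratios scaling, where the share over all genes was 36.3%, and under quantile normalization, where it was 35.4%. These are rescalings of the same 6 libraries. That this replicate might differ was noted when the genes were chosen. Several of the genes also vary together, such as *CHAC1* and *SESN2* (r = 0.99, 6 libraries). The count is therefore a description only. The median difference of replicate 2 from the mean of replicates 1 and 3, on the log2(value + 1) scale, was -0.27 over the 10 genes and 0.03 over all genes tested. A median near 0 does not show differences that go both ways. In read counts over the whole table, chi-square per degree of freedom was 23.6 and 25.2 between replicate 2 and replicates 1 and 3. It was 6.50 between replicates 1 and 3. Among the scrambled siRNA libraries it was larger, between 66.0 and 199.

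The gap was widest in *PPP1R15A* and *ATF3*. For *PPP1R15A* the differences from the scrambled siRNA mean on the log2(value + 1) scale were 0.71, -0.05 and 0.88 in replicates 1, 2 and 3, so replicate 2 showed no increase. For *ATF3* they were 1.39, 1.00 and 1.72, an increase in each. For *SESN2* they were 1.14, 1.00 and 1.27, and for *ASNS* 0.64, 0.70 and 0.80, so the increase of these genes was of similar size in all 3 libraries. For *ATF5* they were -1.05, -1.43 and -1.35, and replicate 2 again had the lowest value. The median over the 10 genes was 0.61, 0.17 and 0.72 in replicates 1, 2 and 3, against -0.021, -0.0023 and -0.022 over all genes. Replicate 2 was also the library with the lowest *DUSP6* level. The part of the siRNA, the depth of knockdown or the culture in the lower values of replicate 2 was not tested.

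**Figure D3:**
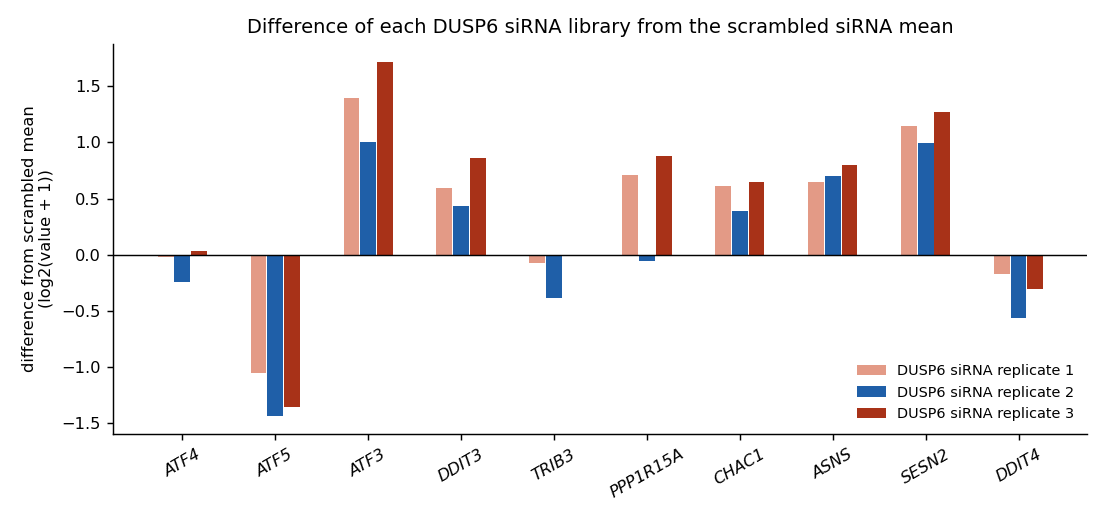
Difference of each *DUSP6* siRNA library from the mean of the scrambled siRNA libraries on the log2(value + 1) scale, with 1 bar per library and gene. The bar of replicate 2 is the lowest of the 3 in every gene but *ASNS*, and for *PPP1R15A* it is -0.05 where the others are 0.71 and 0.88.

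Other genes of the pathway were called in both directions. Of 82 other genes of the integrated stress response and the unfolded protein response, in 6 lists, 78 were tested, and 12 were higher and 17 lower, with a median log2 fold change of -0.06. Replicate 2 was the lowest *DUSP6* siRNA library in 52 of the 78 (66.7%), against 33.5% of all genes tested. For the calls, the background shares of 19.7% higher and 24.7% lower apply here too.

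Among the 16 genes of the eIF2 switch, the kinases, eIF2 and its exchange factor eIF2B, 2 were higher and 3 lower (median log2 fold change -0.14). *EIF2AK2*, which encodes the double-stranded RNA kinase PKR, was 64.1, 60.8 and 53.1 with scrambled siRNA and 241, 234 and 260 with *DUSP6* siRNA. Its level was higher in all 3 *DUSP6* siRNA libraries and rose by 2.03 on the log2 scale with a standard error of 0.10 (limma adjusted p = 2.34e-06). *EIF2AK3*, the kinase PERK of the endoplasmic reticulum, had 0.26 (limma adjusted p = 0.0586), and *EIF2AK4*, the amino acid sensor GCN2, had -0.15 (limma adjusted p = 0.309). Neither passed the test, although *EIF2AK3* was called higher by edgeR and DESeq2, under quantile normalization and without scrambled siRNA replicate 2. *EIF2B2*, a subunit of eIF2B, rose by 0.42 on the log2 scale, a call that was lost without *DUSP6* siRNA replicate 2 (0.34, limma adjusted p = 0.0815). The other eIF2B subunits had negative log2 fold changes. *EIF2B1* (-0.36, limma adjusted p = 0.0105) and *EIF2B3* (-0.38, limma adjusted p = 0.0116) were called lower. *EIF2B4* (-0.15) and *EIF2B5* (-0.34) did not pass the test. Other genes share 15.6% of the exon sequence of *EIF2B1*, so its value is uncertain. *EIF2S3*, the gamma subunit of eIF2, fell by 0.53 on that scale. *EIF2S3* has a near-identical intronless copy in the genome, so its value is uncertain.

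Genes of amino acid supply were also called in both directions. Of 9 tested genes of amino acid synthesis, one-carbon metabolism and linked enzymes, 0 were higher and 3 lower by limma (median log2 fold change -0.29). At an unadjusted p under 0.05 these counts were 1 and 5. DESeq2 called 1 higher, as did the fit without scrambled siRNA replicate 1, and without scrambled siRNA replicate 3 there were 2. *PHGDH*, the entry enzyme of serine synthesis, fell by 0.84 on the log2 scale. *MTHFD2*, a mitochondrial folate enzyme, fell by 0.70, and 11.6% of its exon sequence is shared with another gene, so its value is uncertain. *PYCR1*, of proline synthesis, fell by 0.33 on the log2 scale close to the threshold (limma adjusted p = 0.0461). The *PYCR1* call was lost in 8 of 14 alternatives, with adjusted p-values of up to 0.295, and among them were 5 of the 6 fits that left out 1 library (all but that without scrambled siRNA replicate 2). The gene also shares 14.1% of its exon sequence with another gene. *ASNS* rose while *PHGDH* and *MTHFD2*, which are also known targets of ATF4, fell. Of 8 tested amino acid transporters, 3 were higher and 3 lower (median 0.21). *SLC3A2*, the heavy chain shared by several transporters, rose by 0.93 on the log2 scale. *SLC7A11*, its cystine-transporting partner, rose by 0.77, with 8.97% of its exons under an antisense gene, so its value is uncertain. *SLC1A5*, a glutamine transporter, fell by 1.14 on the log2 scale. In all 8 transporters replicate 2 was the lowest *DUSP6* siRNA library, as it was in 33.5% of all genes tested. Of 12 aminoacyl-tRNA synthetases, 0 were higher and 2 lower by limma (median -0.04), and at an unadjusted p under 0.05 these counts were 1 and 2. DESeq2 called 1 higher, and without scrambled siRNA replicate 3 there were 2. *AARS1* fell by 0.52 and *YARS1* by 0.50 on the log2 scale.

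Of 18 other tested targets and partners of ATF4 and CHOP, 4 were higher and 5 lower (median -0.22), and without *DUSP6* siRNA replicate 3 only 2 were higher. *BBC3*, which encodes the pro-apoptotic protein PUMA, rose by 0.87 on the log2 scale, from 2.60 ± 0.536 to 5.59 ± 0.987 (SD, n = 3 each). *JDP2*, a repressor related to ATF3, fell by 1.23, and *STC2*, a secreted glycoprotein, fell by 0.87. Of 15 genes of the IRE1 and ATF6 arms of the unfolded protein response, 3 were higher and 1 lower by limma (median 0.22), and at an unadjusted p under 0.05 these counts were 7 and 2. The number higher in this list depended on the setting, with 10 under quantile normalization, 7 with DESeq2 and 6 without scrambled siRNA replicate 2. Without scrambled siRNA replicate 3, 3 were lower. *DNAJB9*, a chaperone of the endoplasmic reticulum, rose by 0.76, and *EDEM1*, of protein degradation there, rose by 0.57. *XBP1*, the transcription factor that IRE1 splices, fell by 0.71. These values count all forms of *XBP1* mRNA, spliced and unspliced.

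**Figure D4:**
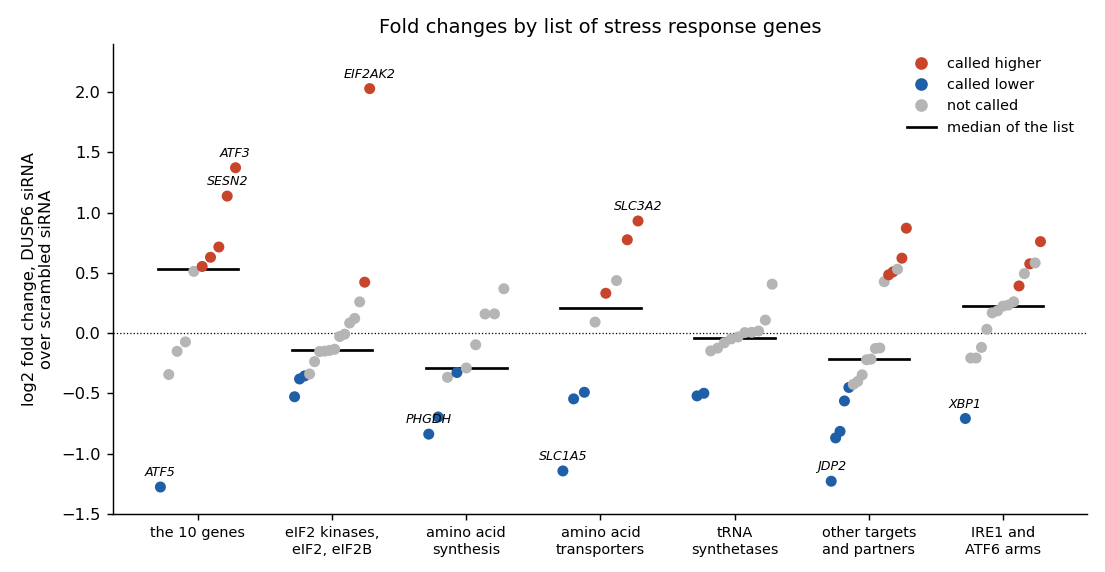
Log2 fold change, *DUSP6* siRNA over scrambled siRNA, of each tested gene in the 10 genes and the 6 other lists, 1 point per gene, coloured by call, with a line at each list's median. The median is 0.53 for the 10 genes and between -0.29 and 0.22 for the other lists, and *EIF2AK2* lies highest at 2.03.

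The 10 genes did not share 1 pattern over the 6 libraries. The correlation of a gene with the mean of the other 9 ran from -0.61 for *ATF5* and -0.03 for *DDIT4* to 0.75 for *CHAC1*, and that between *ATF5* and *ATF3* was -0.93. The genes most like the average of all 10, which thus mixes genes that moved in opposite ways, were nevertheless sought. Each of the 10 genes was scaled to SD 1 over the libraries and averaged, which gave -0.53, -0.39 and 0.15 in scrambled siRNA replicates 1, 2 and 3 and 0.48, -0.42 and 0.71 in *DUSP6* siRNA replicates 1, 2 and 3. *DUSP6* siRNA replicate 2 lay within the scrambled siRNA range. Among 925 other genes whose mean value was 10 or more and whose SD was 0.5 or more on the log2 scale, *HMOX1*, the heme-degrading enzyme of oxidative stress, had the highest Pearson correlation with this average (r = 0.93, 6 libraries that share the split into 2 groups). Its value was 276, 322 and 541 with scrambled siRNA and 959, 485 and 941 with *DUSP6* siRNA. Replicate 2 lay among the scrambled siRNA libraries, as for *PPP1R15A*. The log2 fold change was 1.06 (standard error 0.30, limma adjusted p = 0.0190), and the call was lost with no filter, without scrambled siRNA replicate 1 or 2 and without *DUSP6* siRNA replicate 1 or 3, with adjusted p-values of up to 0.0754. *TYMP* (r = 0.86), *DNAH17* (0.80), *ETS2* (0.78), *SP100* (0.77), *CDKN1A*, which encodes the cell cycle inhibitor p21 (0.75), *JAG1* (0.75) and *PSMB10* (0.74) followed. *DUSP6* siRNA replicate 2 was low in the average by which these 8 genes were chosen, so its being the lowest *DUSP6* siRNA library in all 8 follows from the choice, as may the calls of 7 of them as higher, and both are descriptions only. *JAG1* did not pass the test (limma adjusted p = 0.0624). Of the exon sequence of *TYMP* 19% and of that of *DNAH17* 12.6% is shared with other genes.

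**Figure D5:**
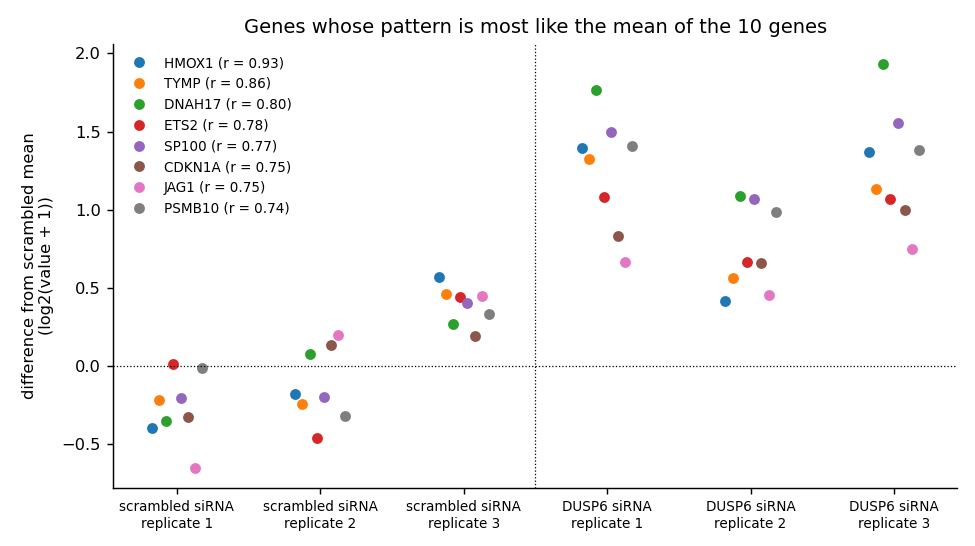
Difference from the scrambled siRNA mean on the log2(value + 1) scale for the 8 genes most like the average of the 10 genes, 1 point per gene and library. The points of *DUSP6* siRNA replicate 2 lie below those of replicates 1 and 3 for each gene, which follows from how the genes were chosen, as for *HMOX1* at 0.42 against 1.40 and 1.37.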

How the data were processed

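A stranded mRNA kit was used for the 6 MDA-MB-453 libraries. The authors aligned reads to hg38 and assigned them to RefSeq genes with Rsubread, and deposited 1 normalized signal value per gene and library; the submitters' processing notes also name bcl2fastq and edgeR. The normalization is not given in the sources used here. Each value was a whole number of reads (100% within 0.001 of a read) times 1 step per library, between 0.0121 and 0.0202, and the steps equalled edgeR's TMM scaling. Counting error was therefore small beside the spread between libraries. No 2 libraries were alike enough to be 1 library (chi-square per degree of freedom of at least 6.50 within groups).

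Values were taken as log2(value + 1), on which fold changes of low genes are understated. Genes whose mean over the libraries was 1 or more, 12862 in all, were tested with limma 3.58.1 (eBayes with a trend, R 4.3.3), with Benjamini-Hochberg adjustment over all of them and calls at an adjusted p under 0.05. All p-values are two-sided. On simulated data with 200 changed genes among 12862, limma recovered 95% of changes of 2-fold and 100% of changes of 4-fold, with 15 unchanged genes called. In the real data far more genes were called, 2540 higher and 3179 lower. The simulation held no changes under 2-fold, such as those of *DDIT3*, *ASNS* and *CHAC1*, and so does not speak to them. The settings changed in turn were the pseudocount (0.1), the filter (none, or a mean of 10 or more), the scaling (median of ratios or quantile normalization), a replicate block, the tool (edgeR 4.0.16 or DESeq2 1.42.0 on the recovered reads) and each library left out. The named genes were the 10 genes, *DUSP6*, up to 3 called genes with the largest change in each other list, *EIF2AK2*, *EIF2AK3*, *EIF2AK4* and the 8 genes most like the 10. The other eIF2B subunits were named beside *EIF2B2* after their values were seen. The 10 genes and all lists were chosen with earlier results of these data known. Exon lengths, overlaps and positions came from GENCODE on hg38, genes with over 5% of exon sequence shared with another gene were called uncertain, and promoters came from RefSeq on GRCh38.p14 (18 windows for the 10 genes).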

Additional observations from a re-analysis of the deposited data

How the results depend on the processing

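*ATF3*, *SESN2*, *ASNS*, *DDIT3* and *CHAC1* were called higher and *ATF5* lower under all 14 alternatives. Over all genes the number higher was 2540, it was 1639 with a mean value of at least 10, and it ranged from 1574 (without *DUSP6* siRNA replicate 2) to 3183 (without scrambled siRNA replicate 3) when 1 library was left out. Of the 10 genes, 1 to 2 were lower when 1 library was left out, *DDIT4* joining without scrambled siRNA replicate 1. Of the other pathway genes 12 were higher, against 24 with quantile normalization, 19 with DESeq2 and 18 with a replicate block, and 9 to 18 when 1 library was left out. The share of called genes that were higher was 44.4%, and 50.6% under quantile normalization. The log2 fold change of *ATF4* turned to 0.16 under quantile normalization and ranged from -0.13 (without *DUSP6* siRNA replicate 3) to 0.0089 (without *DUSP6* siRNA replicate 2) when 1 library was left out. Under quantile normalization that of *TRIB3* turned to 0.053 and that of *EIF2AK4* to 0.00049. The cause was not tested. Same-numbered libraries correlated at 0.005, 0.087 and -0.076 in their deviations from the group means. Libraries of unlike number correlated at between -0.091 and 0.132. With 3 libraries a group, these correlations cannot decide whether the numbers mark pairs, and the labels do not say so. With the replicate block 2495 genes were higher and 3096 lower, and *PPP1R15A* was called higher (0.51, limma adjusted p = 0.0452). With 3 libraries a group, the spread between libraries and not the depth limits the values of the 10 genes.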
